A study of Mus musculus with 6 samples.

Results

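The 9 genes Cd79a, Cd79b, Ms4a1, Pax5, Cd22, Cr2, Fcer2a, Blk and Bank1, which encode the signalling chains, co-receptors and lineage factor of B cells, were followed in bulk RNA sequencing of mouse mammary gland. They were chosen by name, and all 9 were among the 17464 gene symbols measured in each of 6 libraries. Of the libraries, 3 came from glands given recombinant mouse CXCL14 protein, a chemokine, and 3 from untreated glands, numbered 1 to 3 in each group. All came from wild-type C57BL/6 mice at postnatal day 45, so no gene was altered in either group, and the protein is the one difference between the groups that the labels give. How much protein was given, by which route and for how long was not stated in the labels, nor was whether a library is 1 animal or a pool. P-values therefore measure the spread between these libraries, which may be technical.

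A B cell recognises antigen through a membrane immunoglobulin that has almost no cytoplasmic part of its own. The immunoglobulin signals through the paired chains encoded by Cd79a and Cd79b, whose tyrosine motifs are phosphorylated by Src-family kinases such as Blk. Co-receptors set the strength of this signal, with the complement receptor encoded by Cr2 raising it and the sialic acid-binding receptor encoded by Cd22 lowering it. Pax5 commits lymphoid progenitors to the B lineage and holds the other genes of this kind in an active state. B cells are few in the mammary epithelium and stroma and dense in the lymph node that lies in the gland's fat pad.

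Promoter windows from RefSeq (build GRCm38.p6, 250 bases before to 50 bases after a start) were available for 6 of the 9 genes, 8 windows in all. They were searched on both strands for the octamer ATGCAAAT, a motif of lymphoid promoters, and for the EBF1 palindrome, TCCC and GGGA with any 2 bases between them, named for a B-lineage factor. With no octamer match among them, the motifs overlapped in none of the 8 windows. The octamer was in 0 of the 8 windows and in 1.74% of all 32851 windows. The EBF1 motif was in 1 of the 8, that of Cd22, and in 0.904% of all windows. Only exact matches were sought, so sites that depart from these letters, in Cd79a or another window, were not counted. Shown are Cd79a, the most abundant of the genes, Cd22, with the EBF1 match in capitals, and Fcer2a, the gene whose groups did not overlap, with the window farthest upstream of 3. They lie at chr7:24897247-24897546 on the plus strand, chr7:30878979-30879278 on the minus strand and chr8:3694125-3694424 on the minus strand.
Cd79a: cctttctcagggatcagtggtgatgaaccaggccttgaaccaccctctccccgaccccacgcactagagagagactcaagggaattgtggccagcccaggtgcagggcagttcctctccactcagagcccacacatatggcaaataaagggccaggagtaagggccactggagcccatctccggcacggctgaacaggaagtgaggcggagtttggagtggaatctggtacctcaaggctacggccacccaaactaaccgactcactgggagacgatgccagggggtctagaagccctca
Cd22: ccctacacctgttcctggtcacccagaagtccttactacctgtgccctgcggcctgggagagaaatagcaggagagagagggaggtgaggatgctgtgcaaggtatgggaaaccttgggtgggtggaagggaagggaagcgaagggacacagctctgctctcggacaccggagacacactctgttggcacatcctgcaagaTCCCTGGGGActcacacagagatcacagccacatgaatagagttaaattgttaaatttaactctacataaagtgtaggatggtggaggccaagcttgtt
Fcer2a: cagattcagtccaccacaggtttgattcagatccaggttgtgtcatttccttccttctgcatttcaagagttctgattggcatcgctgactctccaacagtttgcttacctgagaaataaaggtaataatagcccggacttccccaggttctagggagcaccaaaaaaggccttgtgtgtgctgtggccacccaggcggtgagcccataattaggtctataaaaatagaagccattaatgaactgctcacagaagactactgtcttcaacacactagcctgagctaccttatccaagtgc
Their build is not the mm8 of the submitters' processing notes, and no value here was placed by these coordinates. A match describes letters only, and the motifs' part in the levels below was not tested.

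The libraries held between 15245981 and 16983352 recovered reads, and 1 of them stood apart from its label. CXCL14 replicate 1 was close to untreated replicate 1, with a mean chi-square per gene of 2.42 between their reads, where counting noise alone gives a value near 1, against 25.7 to 98.8 in the remaining 14 pairs. Over the 9 B-cell genes the same pair had 3.87 and the other 14 pairs between 22.1 and 89.1. Both libraries were kept under their labels, and results are given with and without CXCL14 replicate 1. Since that library drew attention by its values, larger differences without it follow in part from the choice. The series title speaks of endothelial cells and the labels of mammary gland. Of 10 epithelial, 8 adipocyte and 8 endothelial markers, 0 were at 0 in any library. This is a low bar, since between 1295 and 1643 of the 17464 symbols were at 0 in a library. The median level in a library lay between 2.57 and 38.3 FPKM for the epithelial markers. It lay between 1.99 and 9.5 FPKM for the adipocyte markers and between 41.6 and 152 FPKM for the endothelial markers.

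The 9 B-cell genes were abundant and steady, and none passed the test between CXCL14-treated and untreated glands. Their summed level was 1280, 1350 and 1140 FPKM in CXCL14 replicates 1, 2 and 3, and 1300, 1310 and 1400 FPKM in untreated replicates 1, 2 and 3. FPKM is a fragment count divided by gene length and library size. Limma-trend on log2(FPKM + 1) called 0 of the 9 genes at an adjusted p under 0.05, beside 0.0% of all 11516 genes tested. At an unadjusted p under 0.05 it had 1 of the 9, Fcer2a, beside 7.77% of all genes. Voom on the recovered reads also called 0 of the 9. In these whole-tissue libraries fewer B cells and less RNA per B cell cannot be told apart. The share of lymph node in each library was not measured, so the levels cannot be assigned to gland tissue or to the node.

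**Figure D1:**
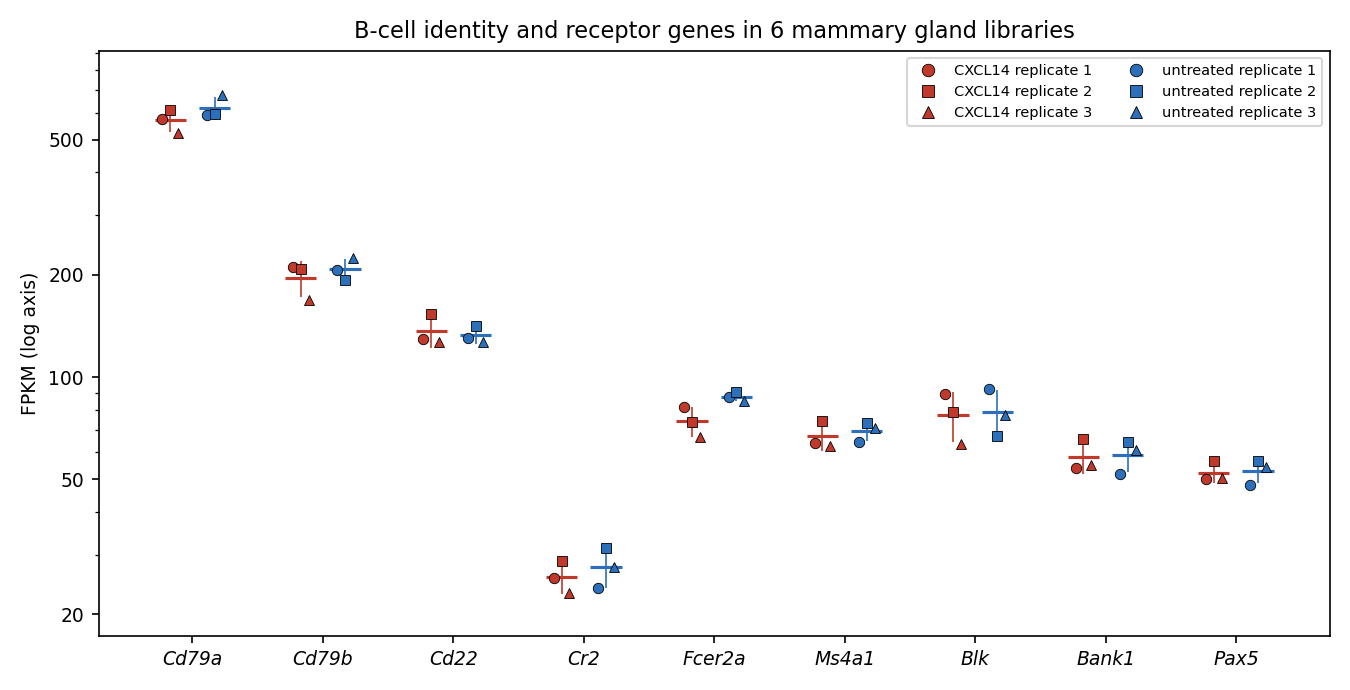
FPKM (log axis) of the 9 genes in each library, with CXCL14 libraries in red and untreated libraries in blue. Symbols mark the replicate number, horizontal lines the mean and vertical lines the SD of 3 libraries; Fcer2a is the gene for which all 3 red points lie below all 3 blue points.

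Cd79a and Cd79b, the signalling chains of the receptor, had the highest levels of the 9. Cd79a measured 573, 611 and 523 FPKM in CXCL14 replicates 1, 2 and 3, against 592, 593 and 676 FPKM in untreated replicates 1, 2 and 3. CXCL14 replicate 3 was lowest and untreated replicate 3 highest, and the groups overlapped. The means were 569 ± 44.4 FPKM with CXCL14 and 620 ± 47.9 FPKM without (SD, n = 3 each). Cd79a differed by -0.13 on the log2 scale (SE 0.12, 95% interval -0.40 to 0.15, limma-trend adjusted p = 0.686), so falls to 0.756-fold and rises to 1.11-fold lay within the interval.

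Cd79b measured 211, 208 and 168 FPKM in the CXCL14 libraries, against 206, 193 and 224 FPKM in the untreated libraries. Its lowest and highest libraries were those of Cd79a, and the groups overlapped here as well. Its change was -0.09 (log2, SE 0.12, 95% interval -0.39 to 0.21, limma-trend adjusted p = 0.782). On the log2(FPKM + 1) scale Cd79b lay 1.54 below Cd79a with CXCL14 and 1.57 below without, a difference of 0.04 (2-sided exact permutation p = 0.7, adjusted p = 0.8 over 8 pairs of genes). With 3 libraries against 3 this test cannot go below 0.1.

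Cd22, the inhibitory co-receptor, was the 1 gene of the 9 with a fold change above 0. It measured 129, 153 and 127 FPKM in the CXCL14 libraries and 130, 141 and 127 FPKM in the untreated libraries. CXCL14 replicate 2 was high and the other CXCL14 libraries lay at the untreated level. On the log2 scale the change was 0.04 (SE 0.11, 95% interval -0.22 to 0.30, limma-trend adjusted p = 0.885). Against Cd79a in the same library Cd22 was 0.17 higher with CXCL14 than without on the log2 scale, the largest of the 8 such differences (2-sided exact permutation p = 0.2, adjusted p = 0.64).

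Cr2, which in mice encodes complement receptors 2 and 1 and is also made by follicular dendritic cells, had the lowest level of the 9. It measured 25.6, 28.8 and 23.1 FPKM with CXCL14 and 24.0, 31.3 and 27.5 FPKM without. Replicate 2 was the highest library in each group, and the groups overlapped. Its log2 change was -0.09 (SE 0.13, 95% interval -0.40 to 0.22, limma-trend adjusted p = 0.794). Even at this level each library held between 2640 and 3319 reads of Cr2, a counting error of at most 1.95%, while the coefficient of variation over the 6 libraries was 11.5%. Across the 9 genes read numbers lay between 2548 and 11514, and the largest counting error was 1.98%, for Blk, so the spread between libraries and not depth limited the comparison.

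Fcer2a, which encodes the low-affinity IgE receptor CD23 of mature follicular B cells, was the 1 gene of the 9 whose groups did not overlap. It measured 81.4, 73.9 and 66.7 FPKM in CXCL14 replicates 1, 2 and 3, against 87.6, 90.1 and 84.9 FPKM in the untreated libraries. All 3 CXCL14 libraries lay below all 3 untreated ones, a pattern shown by 8.36% of all genes tested in this direction, by 4.74% in the other and by 13.1% in either. The means were 74.0 ± 7.37 FPKM with CXCL14 and 87.5 ± 2.58 FPKM without (SD, n = 3 each). Fcer2a differed by -0.24 on the log2 scale (SE 0.10, limma-trend unadjusted p = 0.0494, adjusted p = 0.573), and the 95% interval of the fold ran between 0.714 and 0.999.

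Without CXCL14 replicate 1 the log2 fold change of Fcer2a was -0.31 (95% interval -0.54 to -0.09), and it did not pass (limma-trend adjusted p = 0.0943). Scaling by median ratios moved the change of Fcer2a over all 6 libraries to -0.16, with scaled values of 78.8, 78.6 and 70.4 with CXCL14 and 84.3, 85.6 and 84.2 without. The groups stayed apart on that scale, but the 95% interval of -0.37 to 0.05 included 0 (limma-trend unadjusted p = 0.116). The share of all genes apart on that scale was not counted. Voom on the recovered reads gave -0.25 for Fcer2a (voom unadjusted p = 0.0516). Relative to Cd79a in the same library the groups overlapped, and Fcer2a was 0.12 lower with CXCL14 on the log2 scale (2-sided exact permutation p = 0.3, adjusted p = 0.64).

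Ms4a1, which encodes CD20, measured 64.0, 74.2 and 62.8 FPKM with CXCL14 and 64.2, 73.0 and 70.7 FPKM without. The groups overlapped, and its log2 fold change was -0.05 (SE 0.11, 95% interval -0.30 to 0.20, limma-trend adjusted p = 0.853).

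Blk, a Src-family kinase that some gamma-delta T cells and plasmacytoid dendritic cells also make, varied most among the 9. It measured 89.1, 78.8 and 63.4 FPKM in the CXCL14 libraries and 91.9, 67.0 and 77.4 FPKM in the untreated libraries. The libraries numbered 1 were the highest in each group, unlike the other 8 genes. Its coefficient of variation was 14.6% and its log2 fold change -0.03 (SE 0.17, 95% interval -0.43 to 0.37, limma-trend adjusted p = 0.945). Bank1, a scaffold protein downstream of the receptor, measured 54.1, 65.6 and 55.1 FPKM with CXCL14 and 51.7, 64.3 and 61.0 FPKM without. The log2 fold change of Bank1 was -0.02 (SE 0.12, 95% interval -0.31 to 0.28, limma-trend adjusted p = 0.965), with overlapping groups.

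Pax5, the lineage transcription factor, was the steadiest of the 9, with a coefficient of variation of 6.90%. It measured 50.1, 56.6 and 50.3 FPKM in the CXCL14 libraries and 48.2, 56.7 and 54.2 FPKM in the untreated libraries. Replicate 2 was the highest library in each group and the groups overlapped. The log2 fold change was -0.02 (SE 0.10, 95% interval -0.26 to 0.23, limma-trend adjusted p = 0.955).

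**Figure D2:**
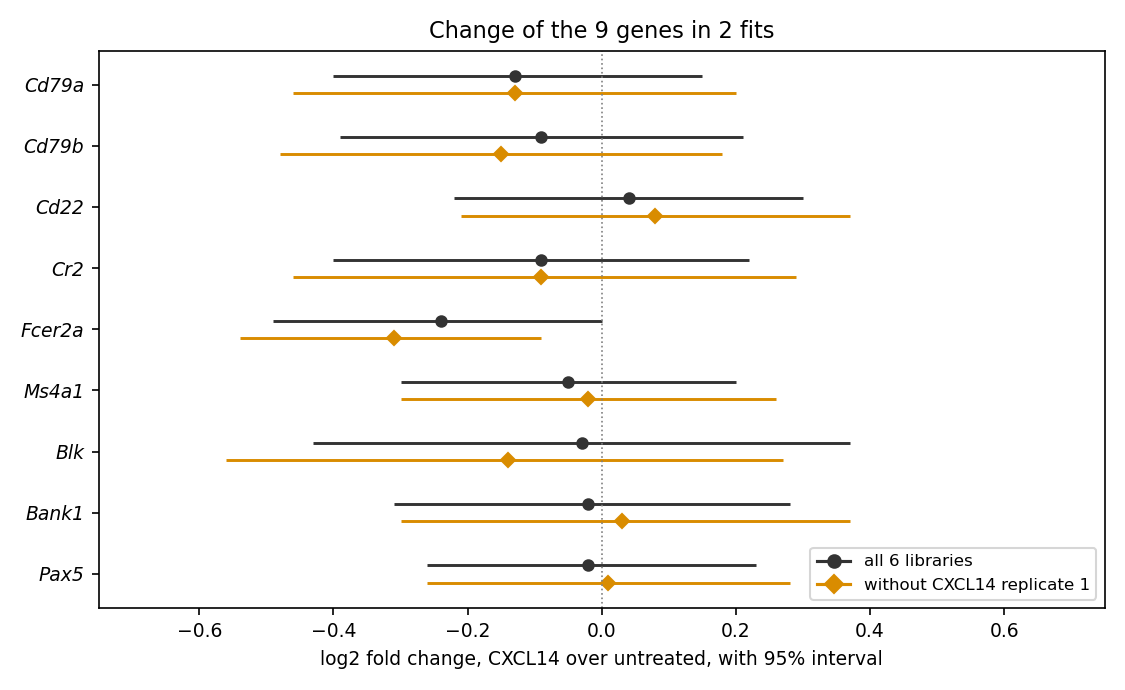
Log2 fold change of each gene, CXCL14 over untreated, from limma-trend on log2(FPKM + 1), with its 95% interval, for all 6 libraries (circles) and without CXCL14 replicate 1 (diamonds). Intervals include 0 for 8 of the 9 genes in both fits; that of Fcer2a ends just under 0 with all libraries and at -0.09 without CXCL14 replicate 1.

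The median log2 fold change of the 9 genes was -0.05, beside -0.06 over all tested genes. Of the 9, 8 were below 0 and 1 above, while 4281 of all 11516 genes were above 0. The count below 0 rests on the scaling, since 4 of the 9 were below 0 after scaling by median ratios. The median was then 0.04 beside 0.01 over all genes, and 6034 of all genes were above 0. With CXCL14 replicate 1 left out the median was -0.09, beside -0.10 over all genes. In that fit 6 of the 9 were below 0, while 4224 of all genes were above 0. That fit called 0 of the 9, beside 5.18% of all genes. Without both libraries numbered 1 it was again 0 of the 9, beside 0.13% of all genes (0.122% higher and 0.00868% lower), with a median of -0.07. Median-ratio scaling without CXCL14 replicate 1 also called 0 of the 9, beside 3.8% of all genes.

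Ranked by length-scaled level, the mean over the 6 libraries fell in the order Cd79a with 595 FPKM, Cd79b with 202 FPKM, Cd22 with 134 FPKM, Fcer2a with 80.8 FPKM, Blk with 77.9 FPKM, Ms4a1 with 68.1 FPKM, Bank1 with 58.6 FPKM, Pax5 with 52.7 FPKM and Cr2 with 26.7 FPKM. The ranges of neighbours did not overlap among the first 3, between Cd22 and Fcer2a, or between Pax5 and Cr2. Fcer2a exceeded Blk in 3 of 6 libraries, so these neighbours did not differ beyond their spread, and Blk exceeded Ms4a1 in 5 of 6. Ms4a1 exceeded Bank1, and Bank1 exceeded Pax5, in 6 of 6 libraries, although their ranges overlapped. Cd79a stood between rank 89 and rank 111 of the 17464 symbols in a library, and Cr2 between rank 2145 and rank 2911.

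CXCL14 replicate 3 was the lowest library for 6 of the 9 genes, and CXCL14 replicate 2 and untreated replicate 2 were each the highest for 3. Likeness was measured as the root mean square difference of log2(FPKM + 1), centred on each gene's mean, over the 6 libraries. Ms4a1 and Pax5 were the most alike, at 0.029, followed by Bank1 and Pax5 at 0.039 and Ms4a1 and Bank1 at 0.046. Cd79a and Cd79b stood at 0.066 from each other. Blk and Bank1 were the least alike, at 0.273.

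Among 5813 genes averaging 10 FPKM or more, the others closest to Cr2 were H2-Eb2, a class II histocompatibility gene, at 0.045, Zfp318, a factor needed for immunoglobulin D expression, at 0.058, and Sorl1, a sorting receptor, at 0.073. By closeness to Cr2, Ms4a1 ranked 3, Bank1 4, Pax5 6 and Cd22 80. Cd79a ranked 211, Fcer2a 689, Cd79b 795 and Blk 4154, so not all of the group lay near Cr2. The genes outside the group closest to Cd79a were Msl2 at 0.032, and Mkrn2 and Rnf146 at 0.036 each. By that measure Cd79b ranked 69 and Ms4a1 284, and the rest of the group between 628 (Pax5) and 3446 (Blk). All distances rest on the same 6 libraries and share their depth and tissue make-up.

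The median SD of log2(FPKM + 1) over the 6 libraries was 0.14 for the 9 genes, beside 0.19 over all tested genes. It was 0.38 for 14 T-cell markers, 0.65 for 9 dendritic cell markers, 1.19 for 9 macrophage markers and 1.55 for 8 neutrophil markers. These spreads describe the lists, were not matched on level and were not tested against each other. The 9 genes averaged between 26.7 and 595 FPKM, while genes reaching 1 FPKM in 3 libraries entered the background. The mean log2(FPKM + 1) of the 9 genes minus that of the T-cell markers was 0.34, 1.04 and 1.03 in CXCL14 replicates 1, 2 and 3, and 0.23, 0.64 and 0.28 in untreated replicates 1, 2 and 3. CXCL14 replicates 2 and 3 had the highest values, and CXCL14 replicate 1 lay among the untreated libraries. No test was made of this difference.

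**Figure D3:**
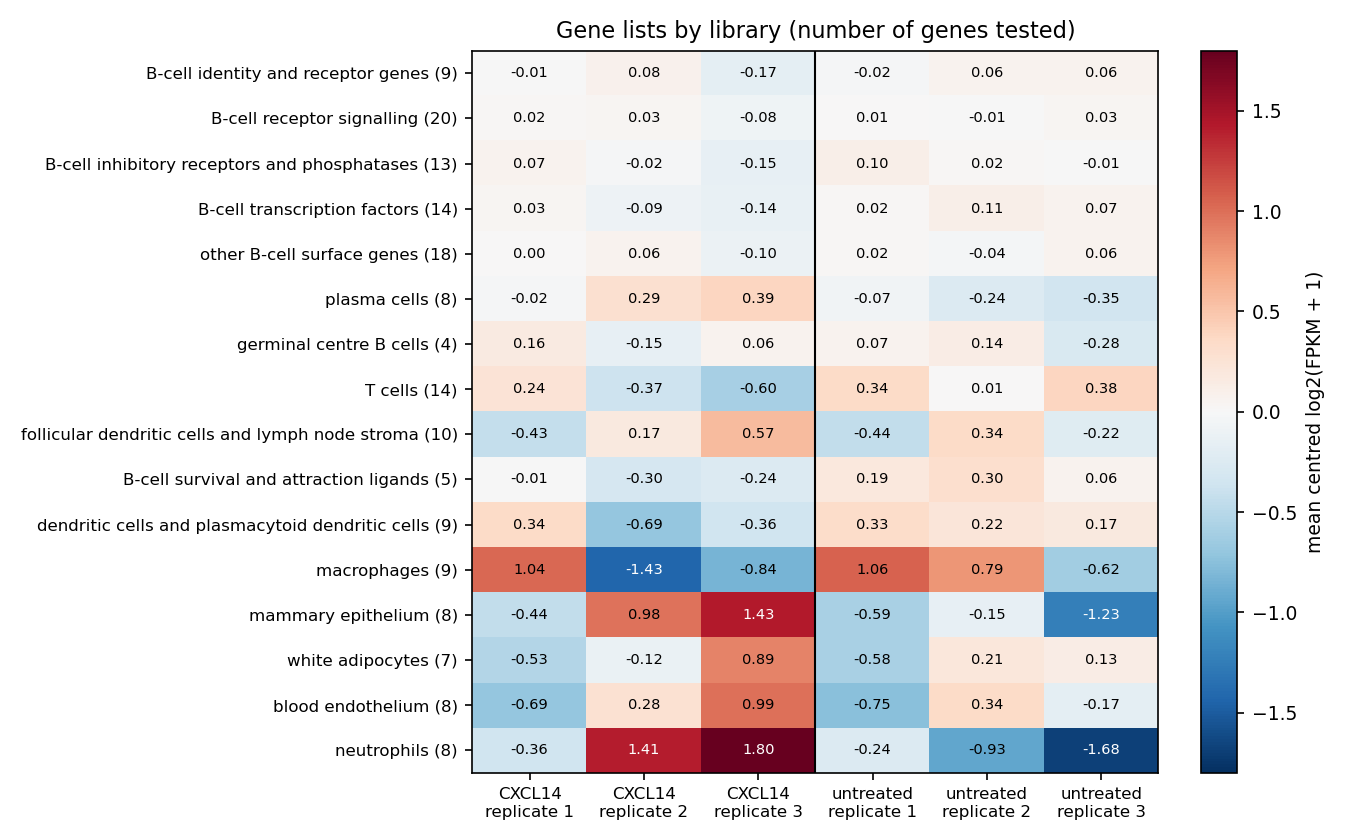
Mean of log2(FPKM + 1), centred on each gene's mean over the 6 libraries, for the 9 B-cell genes and 15 other gene lists (rows, with the number of genes tested) in each library (columns, CXCL14 left of untreated). The 9 genes stay between -0.17 and 0.08, B-cell receptor signalling genes between -0.08 and 0.03, other B-cell surface genes between -0.10 and 0.06 and B-cell transcription factors between -0.14 and 0.11, while macrophage markers run between -1.43 and 1.06 and neutrophil markers between -1.68 and 1.80.

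Genes that carry the receptor's signal onward had a median SD of 0.16 over the 6 libraries. Of 20 such genes 0 passed in the fit of all 6 libraries, where their median change was 0.02 on the log2 scale. The genes with the smallest p were Pik3ap1, an adaptor that recruits phosphoinositide 3-kinase, with a log2 fold change of 0.24 (SE 0.09), Syk, the kinase that binds the phosphorylated CD79 chains, with 0.22 (SE 0.09), Grap2, an adaptor better known in T cells, with -0.41 (SE 0.17), and Prkcb, a protein kinase C, with -0.26 (SE 0.11). Syk measured 61.4, 68.6 and 61.2 FPKM with CXCL14 and 55.6, 56.7 and 51.7 FPKM without, so all CXCL14 libraries lay above all untreated ones. Of the 20 genes 3 had this pattern, Pik3ap1 among them, beside 4.74% of all genes. The reverse held for 1 of the 20, Grap2, beside 8.36% of all genes. Leaving out CXCL14 replicate 1, Grap2 fell (log2 fold change -0.58, limma-trend adjusted p = 0.0437), as 1 of the 20, beside 3.02% of all genes lower in that fit, and 0 of the 20 rose, beside 2.16% higher. After median-ratio scaling in the same 5 libraries 0 of the 20 passed.

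Of 13 inhibitory receptor and phosphatase genes 0 passed with all libraries, with a median of 0.02. Ptpn6, a phosphatase that Cd22 recruits and that leukocytes in general make, measured 112, 67.6 and 62.8 FPKM with CXCL14 and 123, 110 and 110 FPKM without. CXCL14 replicates 2 and 3 were low and CXCL14 replicate 1 lay within the untreated range. Ptpn6 had a change of -0.54 (log2, SE 0.22, limma-trend adjusted p = 0.573). Cd5 had -0.39 (SE 0.17), Fcrla -0.26 (SE 0.12) and Pirb, an inhibitory receptor of myeloid and B cells, -0.72 (SE 0.34). In the 5 libraries without CXCL14 replicate 1, 3 of the 13 fell, beside 3.02% of all genes, and 0 rose, beside 2.16%. They were Ptpn6 with -0.80, Cd5 with -0.57 and Pirb with -1.12. Median-ratio scaling of the same 5 libraries left 2 of the 13 lower, beside 1.02% of all genes, and Cd5 did not pass (-0.44, limma-trend adjusted p = 0.0913). Cd5 is a T-cell marker too, and the part of T cells or myeloid cells in these changes was not tested.

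Of 14 B-cell transcription factor genes 0 passed with all libraries, with a median of -0.12. The smallest p belonged to Bcl11a, with a log2 fold change of -0.40 (SE 0.14), Pou2f2, which encodes an octamer-binding protein, with -0.50 (SE 0.21), Ets1 with -0.29 (SE 0.12) and Foxo1 with -0.24 (SE 0.11). Pou2f2 measured 9.64, 5.76 and 5.16 FPKM with CXCL14 and 9.46, 9.63 and 10.4 FPKM without. It was low in CXCL14 replicates 2 and 3 and at the untreated level in CXCL14 replicate 1. Without that library 2 of the 14 fell, beside 3.02% of all genes, and 0 rose, beside 2.16%. They were Pou2f2 with -0.74 (limma-trend adjusted p = 0.0308) and Spi1, a myeloid and B-cell factor named here after its values were seen. Median-ratio scaling of those libraries left Pou2f2 as the 1 lower gene (-0.63, limma-trend adjusted p = 0.0408), beside 1.02% of all genes, and Spi1 did not pass.

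Of 18 other B-cell surface genes 0 passed with all libraries, and their median was -0.05. Above 0 were 8 of them, beside 4281 of all 11516 genes tested. Fcmr, the Fc receptor for IgM, measured 212, 159 and 152 FPKM with CXCL14 and 209, 261 and 273 FPKM without, a difference of -0.51 on the log2 scale (SE 0.17). Tnfrsf13b, which encodes the BAFF and APRIL receptor TACI, measured 17.6, 11.8 and 10.1 FPKM with CXCL14 and 18.1, 19.5 and 20.5 FPKM without. All 3 CXCL14 libraries of Tnfrsf13b lay below all untreated ones, and the groups of Fcmr overlapped. Of the 18 genes 3 lay wholly below, beside 8.36% of all genes, and 1 wholly above, beside 4.74%. Tnfrsf13b differed by -0.56 on the log2 scale (SE 0.19, limma-trend adjusted p = 0.573). Cd83, an activation marker of B cells and dendritic cells, measured 180, 333 and 281 FPKM with CXCL14 and 180, 141 and 168 FPKM without. Its log2 fold change was 0.66 (SE 0.23). CXCL14 replicate 1 was at the untreated level and the other 2 were high.

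Among the 5 libraries left without CXCL14 replicate 1, 2 of the 18 surface genes rose, beside 2.16% of all genes, and 2 fell, beside 3.02%. The risers were Cd83 and Cxcr5, the follicle-homing receptor, which is named here after its values were seen. Cd83 rose by 0.91 on the log2 scale (limma-trend adjusted p = 0.0420), and Tnfrsf13b, among those that fell, had -0.77 (limma-trend adjusted p = 0.0324). In that fit median-ratio scaling moved the median of all genes by more than 0.1, to 0.01, against -0.10 unscaled. The calls in this list were then 3 higher and 2 lower, beside 2.79% of all genes higher and 1.02% lower, with 1.04 for Cd83 and -0.65 for Tnfrsf13b. Without both libraries numbered 1, 0 of the 18 passed, beside 0.13% of all genes. In that fit 0 genes passed in the signalling, inhibitory, transcription factor, germinal centre, ligand, T-cell and dendritic cell lists.

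**Figure D4:**
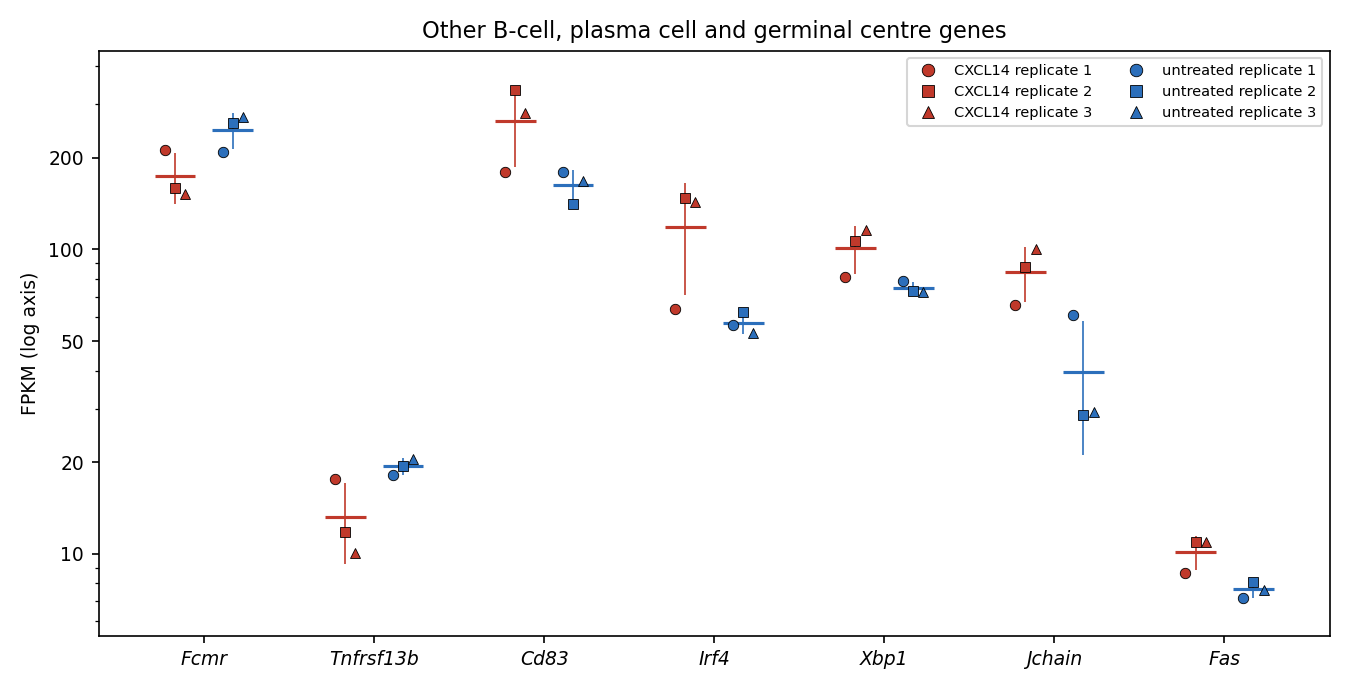
FPKM (log axis) of 7 other genes of the B lineage in each library, with CXCL14 libraries in red and untreated libraries in blue, symbols for the replicate number, horizontal lines for means and vertical lines for the SD of 3 libraries. CXCL14 replicates 2 and 3 lie below the untreated libraries for Fcmr and Tnfrsf13b and above them for the other 5, while CXCL14 replicate 1 is nearer to untreated replicate 1.

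Genes of antibody-secreting cells did not pass over all 6 libraries, and most had fold changes above 0. Of 8 plasma cell genes tested 0 passed and the median log2 fold change was 0.30. Above 0 were 7 of the 8, beside 4281 of all 11516 genes tested. Jchain, which joins secreted IgM and IgA, measured 65.8, 87.5 and 100 FPKM with CXCL14 and 61.1, 28.6 and 29.3 FPKM without. All CXCL14 libraries lay above all untreated ones, as in 3 of the 8 genes, beside 4.74% of all genes. Jchain differed by 1.14 on the log2 scale (SE 0.31, limma-trend adjusted p = 0.573). Irf4, a transcription factor of activated B cells and plasma cells that T cells also make on activation, measured 63.7, 148 and 143 FPKM with CXCL14 and 56.6, 62.1 and 53.2 FPKM without. Its log2 fold change was 0.94 (SE 0.32). Xbp1, a secretory factor that mammary epithelium also makes, had 0.42 (SE 0.15) and Derl3, of protein quality control, 0.76 (SE 0.25).

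With CXCL14 replicate 1 left out, 2 of the 8 plasma cell genes rose, beside 2.16% of all genes, and 0 fell, beside 3.02%. They were Irf4 with 1.33 (limma-trend adjusted p = 0.0220) and Xbp1 with 0.57 (limma-trend adjusted p = 0.0416). Median-ratio scaling of the same libraries gave 3 higher, beside 2.79% of all genes, with Derl3 added (1.08, limma-trend adjusted p = 0.0478). Without both libraries numbered 1, Jchain alone of the 8 rose, with 1.66 (limma-trend adjusted p = 0.0475), beside 0.122% of all genes higher in that fit. Irf4 did not pass there, with 1.32 (limma-trend adjusted p = 0.0801). Jchain was the 1 gene of 11 on the immunoglobulin list with a value here, and immunoglobulin heavy and light chain genes were not analysed here. Epithelial markers were high in CXCL14 replicates 2 and 3, with a median over 10 markers of 28.7 and 38.3 FPKM. In the other libraries this median lay between 2.57 and 6.25 FPKM. The milk protein genes Csn2 (171 and 271 FPKM) and Csn3 (95.9 and 162 FPKM) held a large part of the sum in both, so the sum does not weigh all markers alike. The summed level of 10 mammary epithelial markers, all above 0 in each library, was 184, 477 and 709 FPKM in CXCL14 replicates 1, 2 and 3, and 171, 237 and 76.4 FPKM in the untreated libraries, and its part in the Xbp1 and Jchain values was not tested.

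Of 9 germinal centre genes 8 were in the files and 4 had levels high enough to test, and 0 passed. Fas, a death receptor, differed by 0.36 on the log2 scale (SE 0.12) and did not pass. It measured 8.64, 10.9 and 10.9 FPKM with CXCL14 and 7.18, 8.10 and 7.63 FPKM without. Its groups did not overlap, as 1 of the 4 with CXCL14 wholly above, beside 4.74% of all genes. Basp1 had -0.30 (SE 0.29), Bcl6, the master factor of the germinal centre, 0.07 (SE 0.10) and S1pr2 0.04 (SE 0.25). In the fit without CXCL14 replicate 1 Fas rose (0.46, limma-trend adjusted p = 0.0495), as 1 of the 4, beside 2.16% of all genes, and 0 fell, beside 3.02%. The median level over the 8 genes was 1.34, 0.837 and 0.996 FPKM in the CXCL14 libraries and 1.27, 1.38 and 0.527 FPKM in the untreated libraries, far under that of the 9 B-cell genes.

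Of 10 ligands that attract B cells or keep them alive, 5 were tested and 0 passed, with a median of -0.56. Cd40lg, the T-cell ligand that activates B cells, measured 30.9, 18.1 and 18.2 FPKM with CXCL14 and 34.0, 30.2 and 34.7 FPKM without, a log2 fold change of -0.58 (SE 0.21). Ltb, a lymphotoxin chain of T and B cells, had -0.57 (SE 0.25), Cxcl13, which draws B cells into follicles, -0.56 (SE 0.33) and Lta -0.12 (SE 0.14). With CXCL14 replicate 1 left out, Cd40lg alone of the 5 fell (-0.82, limma-trend adjusted p = 0.0268), beside 3.02% of all genes, and 0 rose, beside 2.16%. Cxcl13 was low throughout, at 1.16, 0.209 and 0.352 FPKM with CXCL14 and 1.73, 1.85 and 0.463 FPKM without.

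Markers of other cells varied between the same libraries. Summed over 14 T-cell markers, none at 0 in any library, the level was 1310, 893 and 729 FPKM in CXCL14 replicates 1, 2 and 3, and 1410, 1070 and 1440 FPKM in the untreated libraries. With all libraries 0 of the 14 passed and the median log2 fold change was -0.50, as in Cd247 (-0.50, SE 0.16) and Themis (-0.51, SE 0.17). Leaving out CXCL14 replicate 1, 6 of the 14 fell, beside 3.02% of all genes, and 0 rose, beside 2.16%. Cd247 was among those that fell (-0.66, limma-trend adjusted p = 0.0442) and Themis did not pass (limma-trend adjusted p = 0.0511). After median-ratio scaling of the same 5 libraries 4 of the 14 were lower, beside 1.02% of all genes, and Cd247 did not pass (-0.53, limma-trend adjusted p = 0.0873). Of 9 dendritic cell and plasmacytoid markers 0 passed, with a median of -0.71, as in Ccr9 (-0.82, SE 0.36) and Cd209a (-1.16, SE 0.57), in the fit of all libraries. Once CXCL14 replicate 1 was left out, 4 of the 9 fell, beside 3.02% of all genes, and 0 rose, beside 2.16%, with Ccr9 at -1.25 and Cd209a at -1.87. Median-ratio scaling of those libraries left 3 lower, beside 1.02% of all genes. Of 9 macrophage markers 0 passed in either fit, with summed levels of 588, 87.1 and 142 FPKM with CXCL14 and 590, 442 and 191 FPKM without, as in C1qa (-1.21, SE 0.88) and Lyz2 (-0.98, SE 0.73). Their values rested on single libraries: C1qa had -2.21 without CXCL14 replicate 1 and -0.52 without CXCL14 replicate 2, and Lyz2 -1.78 without CXCL14 replicate 1 and -0.40 without CXCL14 replicate 2.

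Follicular dendritic cells can also make Cr2 and Fcer2a. The summed level of 11 markers of these cells and lymph node stroma, 0 of them at 0 in a library, was 298, 817 and 1060 FPKM with CXCL14 and 302, 916 and 651 FPKM without. Their median in a library lay between 9.97 and 18.2 FPKM, so a few of the markers held much of the sum. Of the 10 tested 0 passed in either fit, beside 0.0% of all genes with all libraries and 5.18% without CXCL14 replicate 1. Among them were Cxcl13, with between 4 and 33 recovered reads in a library, and Vcam1 (0.52, SE 0.33, and 0.81 without CXCL14 replicate 1). Their part in the levels of Cr2 and Fcer2a was not tested. Endothelial markers had summed levels of 406, 798 and 1270 FPKM with CXCL14 and 387, 813 and 605 FPKM without, and adipocyte markers 986, 1850 and 3060 FPKM with CXCL14 and 915, 1790 and 1920 FPKM without. The adipocyte sum was nearly all Fabp4, at 950, 1810 and 2970 FPKM with CXCL14 and 880, 1720 and 1870 FPKM without. The median adipocyte marker was at 9.5 FPKM in CXCL14 replicate 3 and at most 5.03 FPKM in the other libraries. CXCL14 replicate 3, the lowest library for 6 of the 9 B-cell genes, was the highest for the endothelial and adipocyte lists. The part of tissue make-up in those low B-cell values was not tested.

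Of 8 endothelial and 7 adipocyte markers tested 0 passed in either fit, as in Vwf (0.92, SE 0.61), Plvap (0.67, SE 0.51), Adipoq (0.39, SE 0.49) and Fabp4 (0.28, SE 0.47). Without CXCL14 replicate 1 these had 1.54 for Vwf, 1.18 for Plvap, 0.76 for Adipoq and 0.71 for Fabp4. Of 8 mammary epithelial markers tested 0 passed over the 6 libraries, with 4.40 (SE 1.73) for Csn2 and 2.72 (SE 1.13) for Csn3. Once CXCL14 replicate 1 was left out 3 rose, beside 2.16% of all genes, among them Csn2 with 6.62 and Csn3 with 4.12. Of 8 neutrophil markers 0 passed with all libraries and 5 rose without that library, beside 2.16% of all genes. Without both libraries numbered 1, 4 of the 8 rose, beside 0.122% of all genes. Retnlg passed in both of these fits (3.12 and 3.37, against 2.28, SE 0.69, with all libraries), while Camp, listed at 0 in untreated replicate 3, passed in none of the 3 fits (1.64, SE 0.47, with all libraries).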

How the data were processed

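RNA was extracted from whole mammary gland with Trizol and 2 µg per sample went into NEBNext Ultra libraries, per the labels' protocol. The authors deposited 1 FPKM value per gene symbol and library, per the file headers; Bowtie2 2.2.3, HISAT2 2, HTSeq 0.6.0 and build mm8 stand in the submitters' processing notes with no role. The sources used here give no annotation, gene lengths, filters or strand use, so overlapping or near-identical genes may share reads. Values are whole multiples of a step per gene, from which whole reads, known up to 1 factor per gene, were recovered within 0.004 reads in 17464 of 17464 genes. Reads served for depth, counting error and 1 alternative test.

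Genes reaching 1 FPKM in 3 or more libraries were tested on log2(FPKM + 1) with limma-trend (limma 3.58.1, R 4.3.3), Benjamini-Hochberg adjustment over 11516 genes and a threshold of 0.05. Fold changes are on that scale and understate changes of low genes. SEs and 95% intervals are the moderated ones, and no batch is given. The FPKM files took the test foreseen for them. Pairs of members used exact permutation tests (SciPy 1.17.1). The 9 members, the 16 related lists and the rule for naming were chosen with earlier results of these data known. The rule named all members, up to 4 genes with the smallest p per B-cell list, up to 2 per other list, and the 3 nearest to Cd79a and Cr2; 1 gene it named is not reported here. Alternatives were median-ratio scaling, a pseudocount of 0.1, no filter, voom on recovered reads, a replicate block and leaving out libraries.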

Additional observations from a re-analysis of the deposited data

How the results depend on the processing

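Of the 9 B-cell genes 0 were called under any of the alternatives run, with a smallest adjusted p of 0.0943 (limma-trend, Fcer2a without CXCL14 replicate 1). Their median log2 fold change ran between -0.13 and 0.01 when each library was left out in turn and was 0.04 after median-ratio scaling, so its sign is not settled. Cd79a and Fcer2a had values of at most 0 in every setting. Counts over all genes depended on the libraries numbered 1. Leaving out each library in turn gave between 0 and 597 calls over all genes, and between 0 and 31 among the related lists, the highest without CXCL14 replicate 1. Without both libraries numbered 1 there were 15 and 6 calls. Leaving out CXCL14 replicate 1 with median-ratio scaling, an alternative added after seeing the data, gave 438 and 28, and the cause was not tested. Voom called 0 genes, with 903 at an unadjusted p under 0.05 against 895 by limma-trend.

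Log2 fold changes near 0 changed sign. Median-ratio scaling gave 0.07 for Bank1, 0.05 for Blk, 0.04 for Ms4a1 and 0.07 for Pax5. With CXCL14 replicate 1 left out as well it gave 0.16 for Bank1, 0.04 for Cr2, 0.11 for Ms4a1 and 0.14 for Pax5. Leaving out each library in turn gave values between -0.11 and 0.05 for Bank1, -0.14 and 0.10 for Blk, -0.04 and 0.09 for Cd22, -0.15 and 0.02 for Cd79b, -0.18 and 0.00 for Cr2, -0.08 and 0.03 for Pax5, -0.23 and 0.19 for S1pr2, -0.08 and 0.76 for Adipoq and -0.11 and 0.71 for Fabp4. For the difference from Cd79a within a library it gave between -0.01 and 0.24 for Blk, -0.02 and 0.08 for Cd79b, and -0.03 and 0.16 for Cr2, and leaving out both libraries numbered 1 gave -0.01 for Cr2.

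The replicate numbers matched the most correlated libraries for number 1 and not for numbers 2 and 3. Deviations from the group mean correlated at 0.693, -0.298 and 0.059 for numbers 1, 2 and 3. In each group of 3 libraries these deviations sum to 0, so the correlations are not independent. CXCL14 replicate 2 correlated best with untreated replicate 3, and CXCL14 replicate 3 with untreated replicate 2. With a replicate block limma-trend called 0 genes, and 0 of the 9. Counting error was small for the 9 genes, and the number of libraries limits the precision.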
